A study of Mus musculus with 10 samples.

Results

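The control arrays of this series were 3 of its 10 one-colour Agilent expression arrays, chosen by their titles alone, and they show mouse E14 embryonic stem (ES) cells that had received no activator targeted to a gene. E14 is a male line of 129/Ola background, grown here on gelatin without a feeder layer, in medium with 10% fetal calf serum and 1000 U/ml of Lif. All 3 control cultures were transfected with non-targeting gRNA plasmids and dCas9 alone, which the study's text gives as lacking the VP160 activation domain and the labels do not spell out. The gRNA plasmids carried mCherry and puromycin resistance, and all cultures were kept in 2 µg/ml puromycin for 24 h and harvested at 48 h. The control arrays are labelled as biological replicates. The other 7 arrays, used here only for comparison, held the same cells with dCas9-VP160 and pools of gRNAs against the promoter of Hottip (4 arrays, called Hottip gRNAs) or of Hoxa13 (3 arrays, called Hoxa13 gRNAs). A control against activator difference therefore covers the guides and, if the controls lacked it, the activation domain and its plasmid, and these cannot be told apart.

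Mouse ES cells hold a self-sustaining network of transcription factors led by Oct4 (Pou5f1), Sox2 and Nanog. Lif binds a receptor made of Lifr and gp130 (Il6st), which acts through Stat3 to keep the cells undifferentiated, while Fgf4 made by the same cells signals through Erk towards readiness to differentiate. ES cells divide fast, rely on glycolysis and on the catabolism of threonine, and keep many developmental genes off under Polycomb complexes, often at promoters that are rich in CpG dinucleotides.

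A probe was counted as detected on an array if the scanner software called it well above background. Of 55681 probes, 13514 (24.3%) were detected on 3 of 3 control arrays, 30004 (53.9%) on 0 of 3, and the rest on 1 or 2. Spots that the software flagged as non-uniform outliers did not count as detected. When they kept their own call, 16297 probes (29.3%) were at 3 of 3 and 29242 (52.5%) at 0 of 3, and both counts are given below, the second as "with flagged spots". Through RefSeq accessions, 27656 probes named 20972 genes. A gene was detected if any of its probes was at 3 of 3, which held for 8311 genes (39.6%, or 9725 with flagged spots), and undetected if all its probes were at 0 of 3, which held for 7747 genes (36.9%, or 7519). Protein-coding genes were at 3 of 3 in 41.3% of cases and long non-coding RNA genes in 8.29%. Levels are the log2 signal relative to the 75th percentile of the same array, and ranks are percentiles of the control mean among all probes. Brightness also depends on how well a probe binds, so a rank places a probe and does not measure transcripts.

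The control arrays were not equally good. Replicates 1 and 2 had 0.727% and 1.25% of their spots flagged, replicate 3 had 7.28%, and 97.0% of the flagged spots of replicate 3 were well above background. Over the 13514 probes at 3 of 3, Pearson's r was 0.975 between replicates 1 and 2 but 0.906 and 0.913 between these and replicate 3, a description across probes, which are not independent. The median SD between the 3 arrays was 0.34, and 0.19 without replicate 3. With these probes in 4 equal bins of brightness, replicate 3 minus replicate 1 had a median of 0.79 in the brightest bin and -0.02 in the dimmest. Of 974 probes with an SD above 1, replicate 3 was the farthest from the median of the 3 in 848 (87.1%). Each list below is therefore given by its counts as well as by its ranks, and the level of every array is printed for the genes that matter.

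**Figure D1:**
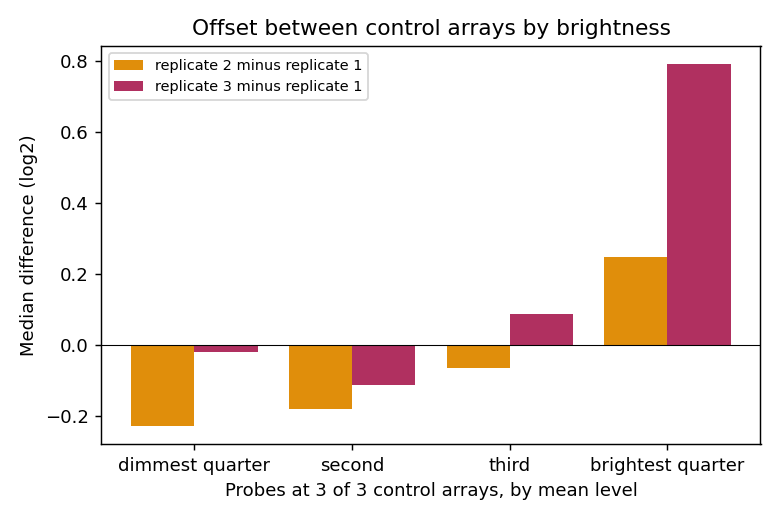
Median log2 difference of control replicates 2 and 3 from replicate 1 (y axis), for the 13514 probes detected on all 3 control arrays, split into 4 equal bins by mean level (x axis). Replicate 3 differs from replicate 1 by 0.79 in the brightest bin and by -0.02 in the dimmest.

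The cells carried the marks of ES cells. All 8 of 8 fixed ES cell markers were at 3 of 3. None of 6 trophoblast and none of 4 mesoderm markers was, and 4 trophoblast and 4 mesoderm markers were at 0 of 3. Of the 8 fibroblast markers, which would report feeder cells, 1 was at 3 of 3, the collagen Col3a1, whose levels of -3.12, -2.54 and -2.24 were close to background, while Col1a2, Postn, Lum and Dcn were at 0 of 3. Among 4 neural markers only Sox1 was at 3 of 3, and among 4 blood markers only Cd3e. Primitive endoderm markers stood apart, with Gata6, Sox7 and Dab2 of 5 at 3 of 3 and Gata4 and Sox17 on 1 or 2 arrays. Whether this reflects a few endoderm-like cells or a low level in many was not tested, and in bulk RNA fewer cells of a type and less RNA per cell cannot be told apart. Of the X- and Y-linked genes, Xist was at 0 of 3 and the Y-linked Eif2s3y at 3 of 3, while Kdm5d, also Y-linked, was at 0 of 3.

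Promoters of a few genes that differed in state are shown because CpG content, which played no part in choosing the arrays or calling detection, ran with detection across the whole array. Each line is the 150 bases before the transcript start from RefSeq (GRCm38.p6), 5′ to 3′, with each CpG in capitals. Pou5f1 and Nanog, detected pluripotency factors, and Rps27, a detected ribosomal protein gene, come first, then Alb, the undetected liver gene for albumin, and T and Neurog1, undetected regulators of mesoderm and neurons.
Pou5f1 (detected), chr17:35505882-35506031, plus strand: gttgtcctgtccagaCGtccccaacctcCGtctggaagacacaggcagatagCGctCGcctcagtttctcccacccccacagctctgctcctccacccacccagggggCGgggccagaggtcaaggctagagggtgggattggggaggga
Nanog (detected), chr6:122707339-122707488, plus strand: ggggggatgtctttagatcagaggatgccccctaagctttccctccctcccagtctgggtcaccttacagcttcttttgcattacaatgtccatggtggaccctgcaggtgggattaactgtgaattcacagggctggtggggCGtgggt
Rps27 (detected), chr3:90213649-90213798, minus strand: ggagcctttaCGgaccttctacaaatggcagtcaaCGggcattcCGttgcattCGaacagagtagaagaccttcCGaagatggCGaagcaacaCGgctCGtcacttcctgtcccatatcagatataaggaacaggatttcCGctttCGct
Alb (undetected), chr5:90460720-90460869, plus strand: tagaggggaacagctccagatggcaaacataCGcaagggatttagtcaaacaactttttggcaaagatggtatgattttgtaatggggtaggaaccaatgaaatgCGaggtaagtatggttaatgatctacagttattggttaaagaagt
T (undetected), chr17:8434273-8434422, plus strand: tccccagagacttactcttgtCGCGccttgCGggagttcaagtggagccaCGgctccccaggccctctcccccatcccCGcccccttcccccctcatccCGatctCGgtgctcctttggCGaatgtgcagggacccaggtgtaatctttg
Neurog1 (undetected), chr13:56252181-56252330, minus strand: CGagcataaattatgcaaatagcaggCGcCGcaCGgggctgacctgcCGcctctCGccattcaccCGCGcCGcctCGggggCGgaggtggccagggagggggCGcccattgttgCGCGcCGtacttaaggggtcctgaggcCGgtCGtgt
The stretch of Nanog held 1 CpG and that of Neurog1 held 17, so single genes can run against the trend of the array.

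Over 15818 protein-coding genes with a promoter window of 300 bases (250 before and 50 after the start, 80.0% of those named), detected genes had a median GC content of 61.0% and undetected genes 49.4%. The median number of CpGs per window was 21 in detected and 4 in undetected genes. With the genes in 5 equal bins of CpG content relative to base composition, 7.90% of the lowest bin (observed over expected up to 0.21) were at 3 of 3 and 77.2% at 0 of 3. In the highest bin (0.87 and above) these shares were 66.3% and 7.93%. Of the 3164 genes of the lowest bin, 699 were olfactory receptor genes, a family that was mostly undetected and adds to the undetected share there. Motifs were searched on both strands and averaged over the windows of a gene. GGGCGG, the GC box, was in 65.7% of windows of detected genes, 24.0% of undetected genes and 49.0% of all 15818 genes. TATAAA ran the other way, at 6.90%, 22.3% and 12.8%, whereas CCAAT was nearly level at 39.8%, 38.3% and 38.6%. GGGCGG contains a CpG and is not independent of CpG content.

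**Figure D2:**
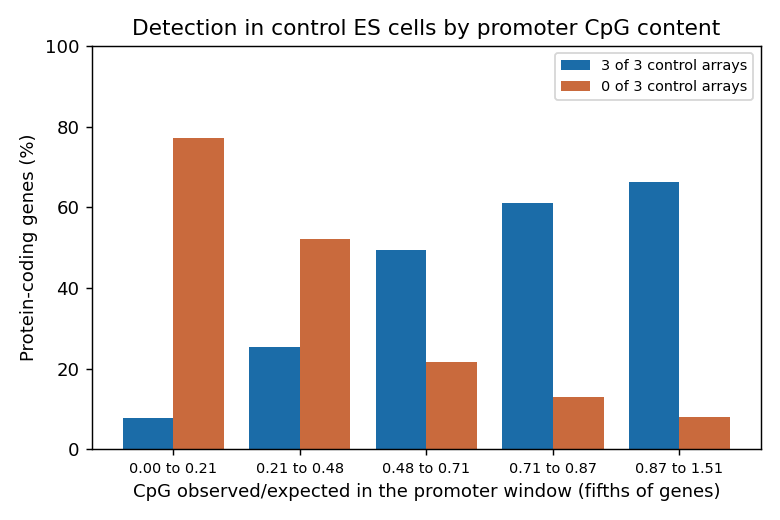
Share of protein-coding genes (y axis, %) detected on 3 of 3 or 0 of 3 control arrays, in 5 equal bins of the CpG observed over expected ratio of their promoter window (x axis). The detected share goes from 7.90% in the lowest bin to 66.3% in the highest.

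Some pluripotency and lineage genes did not follow this trend, and others did. Among all genes in the 2 lowest bins of CpG content 16.6% were detected, yet all 4 core pluripotency genes there (Alpl, Lin28a, Nanog, Pou5f1) and all 7 naive ones (Bmp4, Esrrb, Nr5a2, Spp1, Tcl1, Zfp42, Zfp57) were. In the 2 highest bins 63.7% of all genes were detected and 10.5% undetected. Of the 10 neural precursor genes there 4 were detected (Map2, Neurod1, Sox1, Zic1) and 4 undetected (En1, Hes5, Neurog1, Olig2), and the 4 streak and mesoderm genes there (Evx1, Gsc, Hand2, Wnt3) were all undetected. Other counts went with the trend. In the 2 highest bins all 3 core pluripotency genes, 4 of 5 naive genes and 3 of 4 endoderm genes were detected. In the 2 lowest bins 5 of 6 streak and mesoderm genes were undetected. These lists are small and were named for their cell types, so the counts are a description.

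The core pluripotency genes were bright on the control arrays. Of 15 genes, 13 were at 3 of 3 (14 with flagged spots) and 0 at 0 of 3, with a median rank at the 95.4th percentile against the 67.7th for all named genes. Pou5f1 lay at 4.38, 4.85 and 5.57 on replicates 1 to 3 (99.4th percentile; its spot was saturated on 1 array), Tdgf1, the Nodal co-receptor Cripto, at 3.75, 4.10 and 6.08, and Utf1 at 3.79, 4.20 and 5.74. Nanog was the steadiest of the main factors at 3.81, 3.79 and 4.08, although a second probe for it lay near background at -3.39 and -3.42 on replicates 1 and 2 with a flagged spot on replicate 3. Sox2 lay at 3.65, 4.14 and 5.02. L1td1, an RNA-binding protein of ES cells, was the exception, at 3.72 and 4.05 but -0.16 on replicate 3. Fut9, which makes the surface sugar SSEA-1, was the dimmest and was detected on 2 arrays.

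Genes of naive pluripotency were as bright. Of 20, 15 were at 3 of 3 (18 with flagged spots) and 0 at 0 of 3, with a median at the 95.8th percentile. Dppa5a (3.97, 4.53 and 6.62), Zfp42, also known as Rex1 (4.13, 4.53 and 6.43), and Klf5 (5.41, 5.09 and 4.55) all ranked at the 99.5th percentile. Esrrb, a nuclear receptor of the naive network, lay at 3.81, 4.07 and 4.83, and Klf4 at 3.08, 3.43 and 1.58. The 2 genes short of 3 of 3 with flagged spots, Prdm14 and Dppa3, which mark only some cells of serum cultures, were each above background on 2 arrays, Dppa3 at -3.11, -2.62 and -1.22.

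Genes of formative priming, the next step towards differentiation, were present beside them. Of 16, 11 were at 3 of 3 (13 with flagged spots) and 0 at 0 of 3. Dnmt3b (3.84, 4.23 and 5.57), a de novo DNA methyltransferase, and the transcription factor Otx2 (4.53, 4.26 and 4.35) were at the 98.4th and 97.8th percentiles, and Zic2 at the 95.6th. Fgf5, the usual marker of the primed epiblast, was far dimmer at -0.70, -0.88 and -2.42 and was detected on replicates 1 and 2 only. Otx2 and Fgf5, both used as primed markers, thus lay near opposite ends of the list.

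The 2-cell-like list, genes that a small share of ES cells switch on at a time, was split. Of 12 genes, 4 were at 3 of 3 (5 with flagged spots) and 7 at 0 of 3. Zscan4f lay at 1.83, 1.68 and 1.09 and Zscan4c at 0.79, 0.56 and 0.63. The probes of Zscan4c disagreed. Another was detected on 2 arrays, at 3.26, -1.98 and 0.97 on replicates 1 to 3, and a further one was at 0 of 3. Eif1a was much brighter (98.3rd percentile), and Tcstv1, Tcstv3, Tdpoz1, Tdpoz4, Usp17lc, Usp17le and Arg2 were undetected. Zscan4 genes are near-identical copies, so their probes may share signal.

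**Figure D3:**
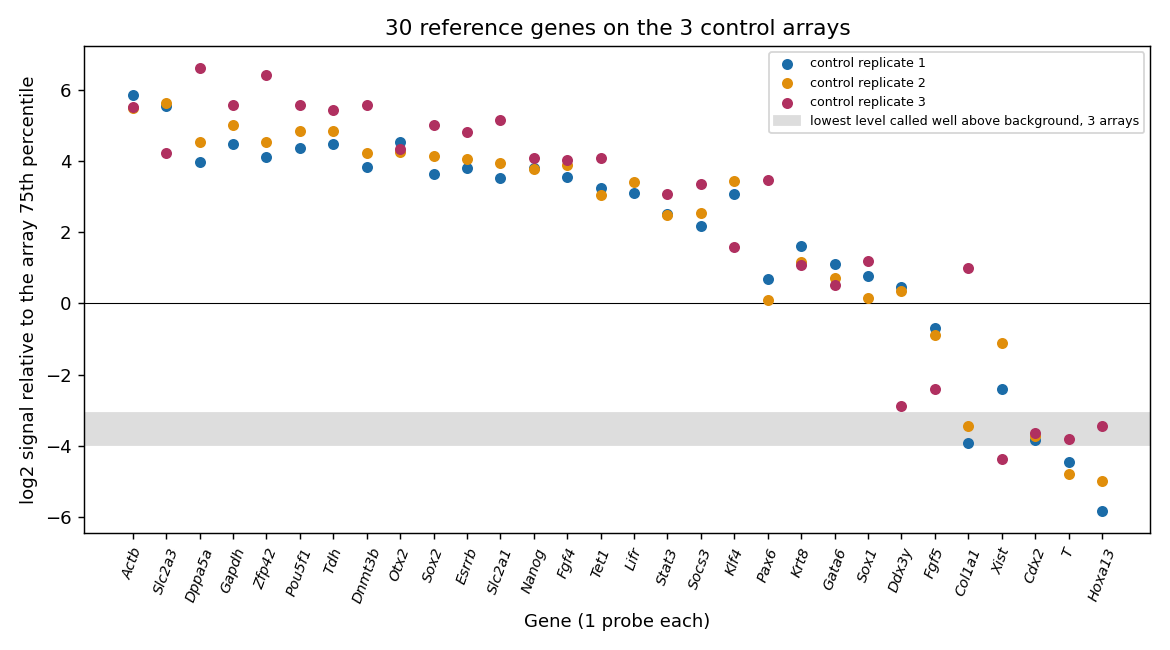
Level of 30 reference genes (x axis, 1 probe each) on each control array (points), as log2 signal relative to the 75th percentile of the array (y axis). The grey band spans the lowest level called well above background on the 3 arrays. Pluripotency, glucose transporter and housekeeping genes lie at the left, and Cdx2, T and Hoxa13 at the right in or below the band.

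Germ layer genes differed by list, and the streak and mesoderm genes were mostly undetected. Of 20 streak and mesoderm genes 15 were at 0 of 3, among them T, Mixl1, Mesp1, Tbx6 and Msgn1, and 3 at 3 of 3. These 3 were Mesp2 (-0.09, -0.60 and -0.74), Eomes (-0.49, -0.69 and -0.68) and Kdr (-1.21, -1.67 and -0.58), low in level and close between arrays. Of 18 neural precursor genes 9 were at 0 of 3 and 6 at 3 of 3, led by Neurod1 (1.59, 0.85 and 0.86), Sox1 (0.76, 0.15 and 1.20) and En2 (0.50, 0.32 and 0.02). Pax6 was uneven, with 0.69 and 0.09 on replicates 1 and 2 and 3.47 on replicate 3. Among the undetected genes were Neurog1, Neurog2, Olig2, Pax2, Pax3, Nes, En1 and Hes5.

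Of 20 endoderm genes 10 were at 3 of 3 and 3 at 0 of 3, Foxa2 and Afp among them. The brightest were extracellular matrix genes, Sparc (3.71 and 3.55, flagged on replicate 3), Col4a1 (2.19, 1.77 and 2.53) and Lamb1 (1.77, 1.78 and 1.93), which other cell types make too. The transcription factor Gata6 lay at 1.11, 0.70 and 0.51. Dab2 reached the 85.6th percentile through replicate 3 alone, at -0.38 and -0.92 on replicates 1 and 2 and 6.27 on replicate 3. Dab2 was above background on 3 of 3 arrays, but Cer1 and Ttr only on 1, with 0.99 and 1.36 on replicate 3 against levels of -4.38 or lower on the others.

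Of 18 trophoblast genes 6 were at 3 of 3 and 7 at 0 of 3, Cdx2 (-3.85, -3.74 and -3.63), Elf5 and Krt7 among the latter. Gcm1, a transcription factor of the placental labyrinth, went against the list at the 99.3rd percentile, with 3.94, 4.56 and 6.18. It has 4 probes, of which 3 were at 3 of 3 (88.2nd to 99.3rd percentile) and 1 was detected on 2 arrays at the 61.8th percentile, so the signal rested on more than 1 probe but not on all. The simple-epithelium keratins Krt18 (2.41, 2.01 and 2.48) and Krt8 (1.61, 1.17 and 1.08) followed.

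In the germ line list 5 of 15 genes were at 3 of 3 (7 with flagged spots) and 3 at 0 of 3, with a median at the 76.0th percentile against the 67.7th for all named genes. It was led by Nanos3, Kit and Zp3, and Tex19.1 lay at 3.12 and 3.09 with a flagged spot on replicate 3. In the fibroblast list 3 of 14 were at 3 of 3 (4 with flagged spots), led by Vim (3.19, 3.49 and 3.25) and Twist1, and in the blood list 3 of 12 (Cd3e, Cd4 and Itgam). Of 18 genes of differentiated organs 14 were at 0 of 3 and 2 at 3 of 3, the endothelial adhesion gene Pecam1 (0.47, -0.17 and 0.70) and the cardiac myosin Myh6 (-0.36, -0.53 and 0.20). Families that ES cells are not known to use give a rough yardstick for such single calls. Of 1063 olfactory receptor genes 10 (0.941%) were at 3 of 3 and 89.9% at 0 of 3, of 252 vomeronasal receptor genes 2, and of 38 taste receptor genes 0. Other largely undetected families had higher shares at 3 of 3, with 4 of 57 defensin (7.02%), 6 of 89 cytochrome P450 (6.74%), 2 of 32 interleukin (6.25%) and 2 of 51 keratin associated protein genes (3.92%). The yardstick thus depends on the family chosen.

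The Hox, T-box, Pax and Lhx families were largely undetected, and other families of developmental transcription factors were not. Of 39 Hox genes 27 were at 0 of 3 and 3 at 3 of 3, among them Hoxa9 and Hoxd11 with mean levels of -1.45 and -2.13. Of 16 T-box genes Eomes was the only one at 3 of 3 (Tbx3 joined it with flagged spots), of 9 Pax genes Pax8, and of 8 Lhx genes Lhx6. The Sox family (10 of 19 at 3 of 3) and the Klf family (10 of 17, or 13 with flagged spots) lay above the 39.6% of all genes, and the Fox (17 of 44) and Pou (6 of 14) families were close to it. Of 6 Gata genes 1 was at 3 of 3 and 0 at 0 of 3. Of 20 Rhox genes, homeobox genes of the X chromosome, 3 were at 3 of 3, and Rhox8 was bright at a mean of 4.15.

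**Figure D4:**
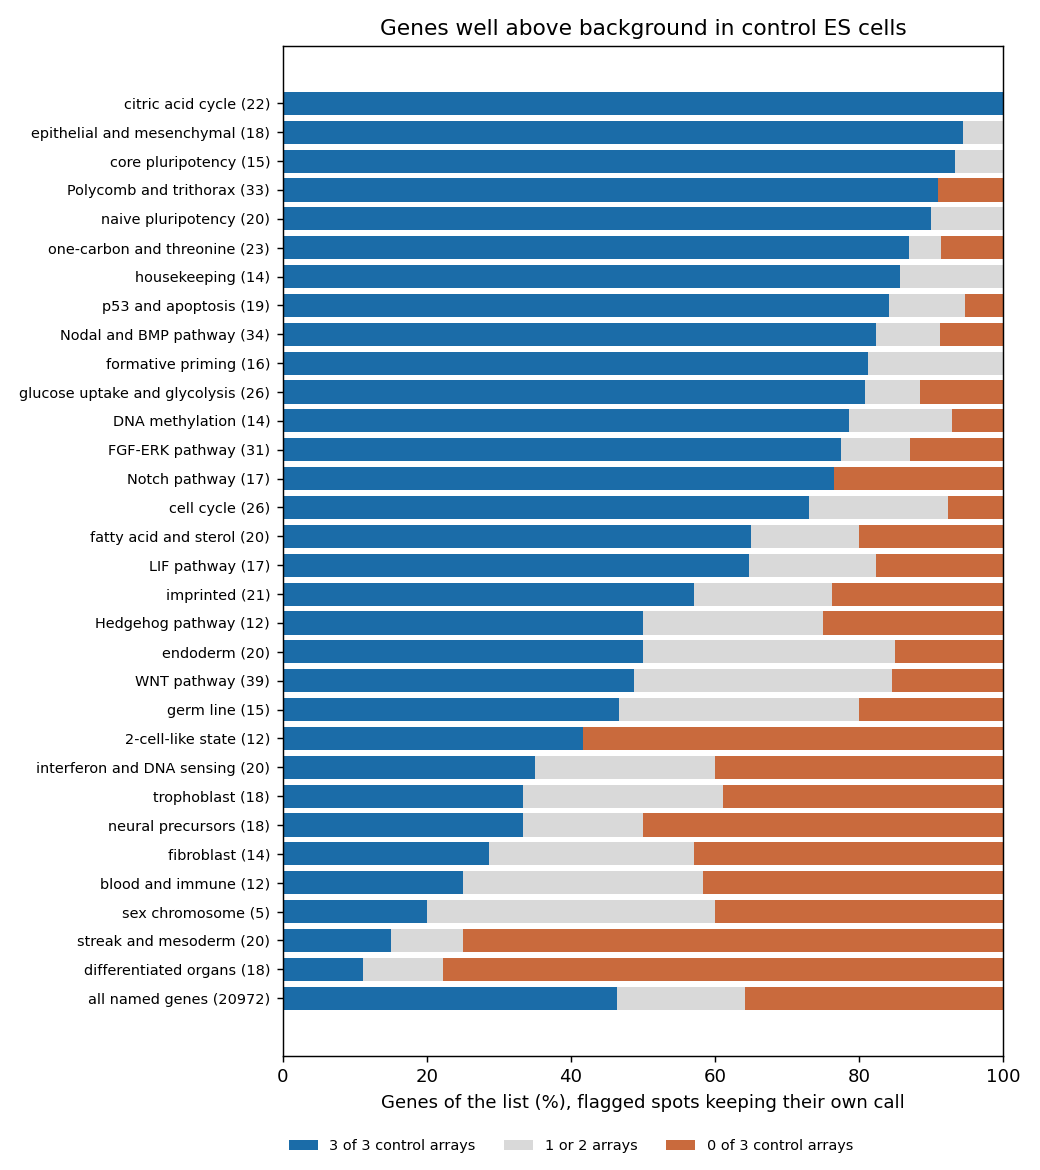
Share of the genes of each list (y axis, number of genes in brackets) well above background on 3 of 3, on 1 or 2, or on 0 of 3 control arrays (x axis, %), with flagged spots keeping their own call. Pluripotency and metabolic lists fill from the left, and mesoderm and differentiated organ lists are undetected for most genes.

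In the Lif pathway the receiving side was present and the ligands were not. Of 17 genes 10 were at 3 of 3 (11 with flagged spots). The receptor chain Lifr lay at 3.10 and 3.40 (flagged on replicate 3, where another of its probes read -0.22), and its partner Il6st at 2.17, 2.06 and 2.24. Stat3, which carries the signal to the nucleus, lay at 2.51, 2.50 and 3.08, and Socs3, its feedback inhibitor and target, at 2.19, 2.55 and 3.36. The cytokines Lif and Il6 were at 0 of 3, as was Stat5a. Tyk2 and Cntfr had single high values on replicate 3 (5.37 against 1.23 and 0.86, and 3.00 against -0.22 and -0.10).

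In the Fgf-Erk pathway 22 of 31 genes were at 3 of 3 (24 with flagged spots) and 4 at 0 of 3. Fgf4, the main ligand of ES cells, lay at 3.57, 3.88 and 4.04, above Fgf1 (1.98, 1.41 and 1.80), Fgf17 and Fgf8 (-1.03, -1.03 and -0.77), and Fgf2 and Fgf10 were undetected. Fgfr1 and Fgfr2 were detected, Fgfr3 was not, and Fgfr4 was on 2 arrays. The transducer Hras was bright, at the 96.2nd percentile. So were targets of the pathway, Etv5 (3.75, 4.06 and 3.90), Dusp6 (3.19, 3.43 and 3.89) and Spred1 (3.30, 3.39 and 4.16), the last 2 being inhibitors that the pathway switches on.

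The Nodal and Bmp pathway was among the fullest, with 26 of 34 genes at 3 of 3 (28 with flagged spots) and 3 at 0 of 3 (Inhba, Bmp2 and Bmpr2). Ligands, a co-receptor and inhibitors were bright together, Gdf3 at 3.60, 4.06 and 4.96, Nodal at 3.83, 3.78 and 4.63, Bmp4 at 3.96, 4.23 and 3.82, and the Nodal inhibitor Lefty1 at 3.85, 3.86 and 4.90. The Bmp target Id3 lay at 3.41, 3.64 and 3.96. Each of Smad1 to Smad7 was at 3 of 3 (Smad4 with flagged spots only).

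In the Wnt pathway 15 of 39 genes were at 3 of 3 (19 with flagged spots), close to the share of all genes, led by Ctnnb1, beta-catenin (3.58, 3.94 and 3.90), and the kinases Csnk1a1 and Gsk3a. Of 19 genes of the ligand family Wnt2 was at 3 of 3 (-1.72, 0.27 and -1.11; Wnt1 too with flagged spots), 11 were at 0 of 3 and 7 were on 1 or 2 arrays. Porcn, which acylates the ligands, was detected at 0.73, 1.02 and 1.97. Among receptors Fzd7 was brightest at 3.02, 3.07 and 2.33. The feedback genes Rnf43 and Znrf3 were at 0 of 3, and Axin2 was above background on 1 array.

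In the Notch pathway 12 of 17 genes were at 3 of 3 (13 with flagged spots), including Notch1, Notch2, Notch4 and the ligands Dll1, Dll3, Jag1 and Jag2. Of its targets, Hes1 and Hey1 were detected and Hes5 and Hey2 were not. In the Hedgehog pathway all 3 ligands (Shh, Ihh and Dhh) were at 0 of 3, while the transducer Smo lay at 2.49, 2.34 and 2.65 and Gli1 at 0.53, 1.00 and 0.62.

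Chromatin regulators of the Polycomb and trithorax groups, which hold developmental genes off or on, were detected in 29 of 33 cases (30 with flagged spots). Eed (4.17, 4.57 and 5.69), a core subunit of PRC2, Rbbp7 and the trithorax subunit Dpy30 led the list at the 99.1st, 98.2nd and 97.6th percentiles. Jarid2, which recruits PRC2, lay at 3.71, 4.14 and 4.61. Ezh2, its methyltransferase, lay at 2.87 and 3.03 but 0.89 on replicate 3. Ring1, Cbx8 and Kmt2d were at 0 of 3, whereas Rnf2, the paralog of Ring1, was at the 92.7th percentile. Kmt2a was not matched to a probe. Of 14 DNA methylation genes 8 were at 3 of 3 (11 with flagged spots). Dnmt3b and its cofactor Dnmt3l (3.89, 4.16 and 5.06) were far brighter than Dnmt3a, which was detected on 1 array, and Tet1 (3.26, 3.05 and 4.10) was detected on all arrays while all 3 probes of Tet3 were at 0 of 3.

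Genes of central carbon metabolism were bright. In glucose uptake and glycolysis 15 of 26 were at 3 of 3 (21 with flagged spots), and the median rank was the 94.1st percentile. Pgam1 (5.40, 5.71 and 5.27), Aldoa (4.78, 5.06 and 5.64) and Eno1 (4.69, 4.92 and 6.17) led. The glucose transporters Slc2a3 (5.54, 5.63 and 4.23) and Slc2a1 (3.53, 3.95 and 5.16) changed order on replicate 3. Of lactate exporters, Slc16a3 lay at 3.25, 3.58 and 3.75, and the single probe of Slc16a1 was at 0 of 3. All 22 citric acid cycle genes were at 3 of 3 with flagged spots (16 without them), with a median at the 94.8th percentile.

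In the one-carbon and threonine list 19 of 23 genes were at 3 of 3 (20 with flagged spots). Tdh, threonine dehydrogenase, on which mouse ES cells are known to depend, lay at 4.49, 4.85 and 5.43 (99.4th percentile), and its second probe at 4.14, 4.49 and 5.78. Psat1 and Phgdh of serine synthesis, Gldc of glycine cleavage (3.46, 3.47 and 4.55) and Mat2a, which makes S-adenosylmethionine, were also detected. The liver enzyme Mat1a was above background on 1 array, and Bhmt (all 3 probes) and Bhmt2, which remethylate homocysteine with betaine, were at 0 of 3. In the fatty acid and sterol list 11 of 20 were at 3 of 3 (13 with flagged spots), led by Acadm, Acly and Sqle, while Srebf1, Pparg and Fabp4 were among the undetected.

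Families of the basic cell machinery set the upper end. Of 83 ribosomal protein genes 78 were at 3 of 3 (83 with flagged spots), with a median at the 99.3rd percentile, and of 46 respiratory complex I genes 41 (46). The proteasome (34 of 43, or 41) and the mitochondrial ribosome (56 of 75, or 74) followed. Among the genes with the brightest probes were Med16 (6.10, 7.77 and 5.26), Snrpf (6.13, 6.35 and 6.53), Rpl36, Rpl38 and Gm12070. Of 14 housekeeping genes 11 were at 3 of 3 (12 with flagged spots), led by Actb at 5.86, 5.51 and 5.52. Hprt lay at -2.96, -3.45 and -3.19, above background on 1 array, and the mitotic kinase Aurkb was at 0 of 3. Whether the probe or the gene lies behind these 2 readings was not tested. A call of undetected describes a probe and is not proof of a silent gene. Among 5554 genes with several probes, 506 (9.11%) had a probe at 3 of 3 and another at 0 of 3.

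Genes of division and cell death were present together. In the cell cycle list 16 of 26 were at 3 of 3 (19 with flagged spots), led by Cdk4 (4.23, 4.47 and 5.97), Pcna and Ccna2, and in the p53 and apoptosis list 13 of 19 (16), led by Mcl1, Bax and Ccng1. Trp53 lay at 2.84, 2.74 and 3.44 and its target Cdkn1a at 1.26, 0.69 and 1.30. In the interferon and DNA sensing list, examined because the cells had taken up plasmid DNA, 5 of 20 were at 3 of 3 (7 with flagged spots). The DNA sensor Cgas lay at -1.05, -1.52 and -1.75, while its adaptor Sting1 was at 0 of 3, as were Ifnb1, Cxcl10, Ccl5, Ifit1 and Ifit3. Of the epithelial and mesenchymal genes 15 of 18 were at 3 of 3 (17 with flagged spots), with Epcam at 3.97, 4.14 and 5.13 and Cdh1, E-cadherin, at 2.72, 3.06 and 3.03 against 0.68, 0.90 and 1.42 for Cdh2. Of 21 imprinted genes 10 were at 3 of 3 (12), led by Gnas, Snrpn and Mest, and Igf2, Rtl1, Nnat, Zim1 and Usp29 were at 0 of 3.

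Among genes at 3 of 3, those with the largest SD between the control arrays mostly had replicate 3 apart. Lenep read -1.65 and -2.14 on replicates 1 and 2 and 6.55 on replicate 3 (SD 4.88), Rsph4a -0.51, -0.64 and 6.57 (SD 4.12) and Kdm8 -1.23, -1.40 and 4.14 (SD 3.15). Ireb2, Acss2 and Dab2 were also high on replicate 3, and Crybb3 and the olfactory receptor gene Olfr981 were low on it. Kcnd1 differed between all 3 arrays (4.81, 1.49 and -2.37), and Casd1 was high on replicate 2 (0.48, 4.64 and -0.59).

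How special the control state was to these arrays was asked by comparing it with the activator groups. Of the 13514 probes at 3 of 3, 8529 (63.1%) were detected on all 7 other arrays too and 36 on none of them. With flagged spots these were 14115 (86.6%) of 16297 probes and 24. In limma's moderated test, which took the probes that 3 or more of the 10 arrays detected, 212 of 21880 (0.969%) differed between control and Hottip gRNAs (85 higher and 127 lower in control) and 25 of 21878 (0.114%) between control and Hoxa13 gRNAs (13 higher and 12 lower), at a Benjamini-Hochberg adjusted p under 0.05. The splits depended on the scaling. Against Hottip gRNAs they were 22 higher and 60 lower with median centring and 26 and 63 with normexp. Against Hoxa13 gRNAs they were 26 and 13 with median centring, 15 and 8 with quantile normalization, 13 and 7 with the authors' log2 values, 7 and 14 with normexp, and 14 and 6 with the percentile taken without flagged spots. With slide as a block, 61 were higher and 8 lower against Hoxa13 gRNAs, of whose 3 arrays 2 lay on another slide than the control arrays. Both comparisons share the 3 control arrays. The median difference over all tested probes, control minus other, was 0.03 for Hottip gRNAs (-0.21 with median centring) and -0.21 for Hoxa13 gRNAs (-0.04 with quantile normalization and 0.04 with the authors' values). In the named genes, 136 of 12084 were called against Hottip gRNAs and 15 of 12081 against Hoxa13 gRNAs.

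Some genes were detected on all control arrays and on no other. Since the activator arrays were below background, their differences are bounds. A bound sets the control mean against the mean, over the dim arrays, of the lowest level called well above background or the probe's own level, whichever is higher. The chemokine gene Cxcl14 lay at -0.00, -0.26 and -0.17 in control, at -3.24, -2.61, -2.22 and -2.74 with Hottip gRNAs and at -4.35, -4.60 and -4.84 with Hoxa13 gRNAs. Every control array lay above every other array. Control was at least 4.90-fold higher than Hottip gRNAs and at least 8.35-fold higher than Hoxa13 gRNAs. Rapgefl1, similar to Rap exchange factors, lay at -0.67, -0.72 and -1.15, at least 3.01-fold and 5.12-fold higher. Gadl1, a decarboxylase, lay at -0.77, -1.19 and -1.37, at least 2.51-fold and 4.27-fold higher. Only 1 of its 3 probes was at 3 of 3, and the values are of that probe. The genes detected on the control arrays alone also included Olfr981, Olfr378, Scnn1a, Foxa3, Rfx5 (by 1 of 2 probes) and Ankrd44. All were chosen for detection on these arrays and entered the test through the control arrays alone, so their values are a description and no test of them is given.

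In total 9 named genes were called in both comparisons, beside 136 of 12084 called against Hottip gRNAs and 15 of 12081 against Hoxa13 gRNAs. The shared control arrays tie these calls together. Cxcl14, Rapgefl1 and Gadl1 entered the test through the control arrays alone, so the count is a description. Of the 9 genes, 8 were higher in control. Besides Cxcl14, Rapgefl1 and Gadl1 these included Nrn1, a neuronal surface protein (control 1.61 ± 0.25, SD, n = 3; Hottip gRNAs -3.08 ± 0.44, n = 4; Hoxa13 gRNAs -2.88 ± 1.21, n = 3), the water channel Aqp5 (-0.16 ± 0.43, -3.93 ± 0.44 and -2.93 ± 0.41), Nfkbiz, a nuclear regulator of NF-kappaB, and Cdc42ep2, a Cdc42 effector. Nfkbiz and Cdc42ep2 had only 2 unflagged control values each, 1.53 and 1.72, and 2.17 and 3.38, and they lost their call against Hoxa13 gRNAs in 12 and 13 of 15 alternatives. Aqp5 lost that call in 11 of 15 and Nrn1 in 5 of 15, both of them without control replicate 1 or without control replicate 2. Aqp5 and Nrn1 were above background on 3 control arrays, on 1 Hoxa13 gRNA array and on 0 Hottip gRNA arrays, so they entered the test mainly through control. Their means in the activator groups rest mostly on readings below background, so the size of these differences is not a measured distance. Tnnt3, a fast skeletal troponin, was the gene lower in control, at -4.53, -4.77 and -4.68. It was detected on 7 of 7 other arrays, at least 6.20-fold higher in Hottip gRNAs and at least 2.68-fold higher in Hoxa13 gRNAs, and its call against Hoxa13 gRNAs was lost in 9 of 15 alternatives, among them without control replicate 1 or 2. Spic, a transcription factor of the Ets family, was likewise at 0 of 3 in control (-3.19, -1.78 and -3.91) and on 7 of 7 others, at least 7.90-fold higher in Hottip gRNAs and at least 3.55-fold higher in Hoxa13 gRNAs. Spic and Tnnt3 were chosen for this pattern and entered the test through the other arrays alone, so their values too are a description.

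**Figure D5:**
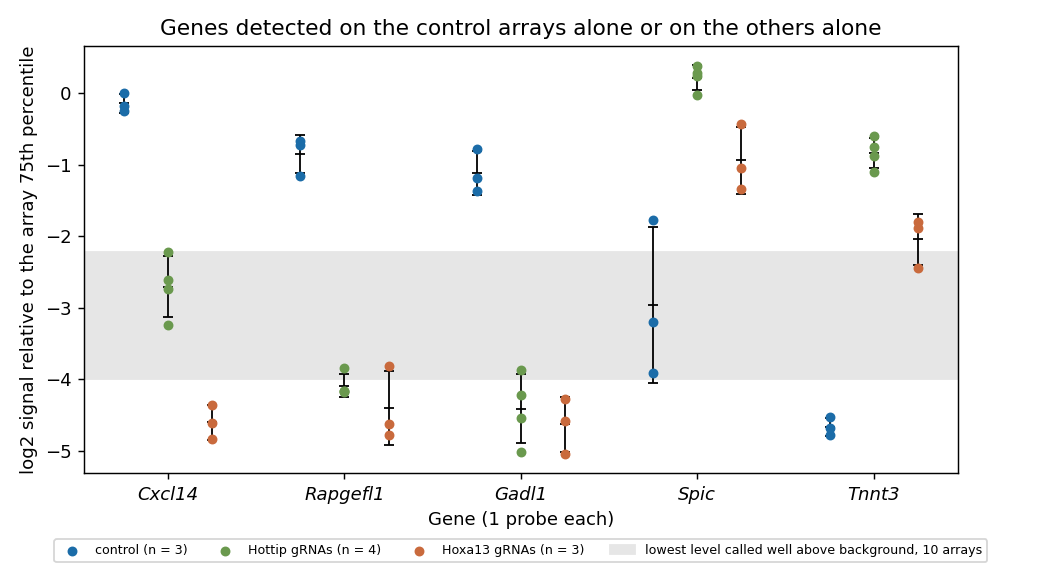
Level of 5 genes (x axis, 1 probe each) on every array with unflagged spots, as log2 signal relative to the 75th percentile of the array (y axis), with the mean and SD of each group in black. The grey band spans the lowest level called well above background on the 10 arrays. The 3 control arrays lie highest for Cxcl14, Rapgefl1 and Gadl1 and lowest for Spic and Tnnt3.

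Among the lists, the trophoblast genes held the most calls against Hottip gRNAs, 5 of 13 tested and all lower in control, beside 0.969% of all probes. They were Cdx2 (at least 13.3-fold), Krt7 (at least 3.74-fold), Gata3, Ascl2 and Rhox6. Against Hoxa13 gRNAs limma called 0 of the 13, and 5 had an unadjusted p under 0.05, beside 1683 of 12081 named genes. Cdx2 and Krt7 were at 0 of 3 in control. Without the Hottip gRNA arrays neither would have entered the test, so their values are a description and lend the count no support. Gata3 lay at -3.08, -2.22 and -2.65 in control against -0.24, -0.04, 0.26 and 0.30 (difference -2.72 ± 0.32, SE, limma adjusted p = 0.0030), and the groups did not overlap. Rhox6 held its call in 2 of 16 alternatives. Whether the comparisons differ was not tested. In the Fgf-Erk list Fgf8 and Fgf1 were called higher in control than in Hottip gRNAs. Fgf8, at least 2.81-fold higher, was above background on 3 control and 0 Hottip gRNA arrays, so its value is a description. Fgf1 was higher by 1.66 ± 0.32 on the log2 scale (SE, limma adjusted p = 0.039). Neither Fgf call held when control replicate 1, 2 or 3 was left out. Of other list members, Cdx1, Gata6, Smad6, Bhmt and Igf2 were lower in control than in Hottip gRNAs and Gli1 and Zeb2 higher, and Acta2 was lower than in Hoxa13 gRNAs. Bhmt and Igf2 were at 0 of 3 in control and entered the test through the Hottip gRNA arrays alone, so their values are a description. The calls of Gata6, Smad6, Gli1 and Zeb2 were also lost when any 1 control array was left out, and that of Acta2 without control replicate 1 or 2. With limma none of the core, naive or formative genes was called in either comparison at an adjusted p under 0.05, which does not show that they were equal. At an unadjusted limma p under 0.05 these were 1 of 15, 1 of 20 and 3 of 16 genes against Hottip gRNAs. Against Hoxa13 gRNAs they were 3 of 15, 3 of 20 and 2 of 16. Over all named genes tested, 1132 of 12084 and 1683 of 12081 were under this mark, so the list counts are a description.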

How the data were processed

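Total RNA of 10 cultures was labelled with Cy3 and hybridised to one-colour Agilent mouse arrays. Of the scanner tables that the authors deposited, the background-corrected intensity and the background, outlier and saturation flags of 59305 non-control spots per array were used, and a deposited table of log2 values, normalised by the authors with limma per the labels, that served as an alternative. The software replaces signals near background by a floor, so levels below background have no order. All control arrays shared 1 slide with all but 2 of the others. The log2 intensity was centred on the 75th percentile of all non-control spots of its array, flagged spots were then left out, and spots of a probe were averaged. A gene was represented by the probe with the highest mean over 10 arrays. Genes in the text were the reference genes, the 3 brightest detected genes of each list, genes against their list, those with the highest level or SD, those detected in control alone or in the others alone, and called list members; further genes illustrate a pathway and were chosen after their values were seen. The members and lists were chosen with earlier results of these data known. Groups were compared with limma (version 3.58.1, R 4.3.3), 1 mean per group, all 10 arrays in one fit. On simulated data of 21881 probes for the Hottip comparison, 47 of 50 changes of 4 and 19 of 50 of 1 on the log2 scale were called. In the same data 13 unchanged probes were called too. The simulated noise was independent between probes and arrays, with no flagged spots and no floor, so these rates need not hold for the real arrays. The arrays carry no read depth, and precision is limited by their number. Replicates are called biological in the labels with no more said, so p-values measure the spread between these samples. Some genes are not reported here.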

Additional observations from a re-analysis of the deposited data

Results flagged for a closer look

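Kirrel3, a cell adhesion gene called against Hoxa13 gRNAs, was the 1 value that stood alone within the Hottip gRNA group, with -4.54 on 1 array against -0.66, -0.58 and -0.49 on the others. The gap was 0.956 of the range of the group. Gadl1, Olfr378 and Rfx5 had the same reading of -4.54 on Hottip gRNAs replicate 3, where the lowest level above background was -2.21. The reading is thus a floor put in by the software, and the gap is not a measured distance. About 1 in 20 such groups would be marked by chance, and 30 genes were examined. The call against Hoxa13 gRNAs (limma adjusted p = 0.0465) was lost in 12 of 15 alternatives, among them when any 1 control or Hoxa13 gRNA array was left out.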

How the results depend on the processing

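With the looser flag for positive and significant signal, 20440 probes were at 3 of 3, 18389 probes and 4409 genes at 0 of 3, and promoter GC was 60.5% in detected and 47.0% in undetected genes. The median SD was 0.53 with median centring and 0.56 with the 75th percentile taken without flagged spots, an alternative chosen after seeing the data, and ran from 0.19 to 0.35 with 1 control array left out. Calls against Hottip gRNAs numbered 82 with median centring, 94 with the authors' log2 values, 89 with normexp, 119 with no filter and 30 with probes detected on all 10 arrays. Against Hoxa13 gRNAs these were 39 with median centring, 16 with no filter, 1 on all 10 arrays and 69 with slide as a block. Leaving out 1 array gave 93 to 198 and 4 to 47 calls. Those that moved a count by over 1.5 times were control replicate 1 (102 and 5), control replicate 2 (93 and 4), control replicate 3 (47 against Hoxa13 gRNAs), Hottip gRNAs replicates 2 and 3 (141 and 134) and Hoxa13 gRNAs replicates 1 and 2 (7 and 14). The replicate numbers did not pair the arrays (correlations of deviations from -0.25 to 0.11), and with a replicate block 50 and 3 probes were called. The causes were not tested. With flagged spots kept, the counts of probes and genes at 3 of 3 and at 0 of 3 in control stayed within 1.5 times, but probes detected on all 10 arrays went from 8529 to 14115. Of 186 list percentiles recomputed, 127 moved by less than the SD between arrays. With the mean of the probes of a gene in place of its brightest probe, 13 of 31 stayed within it and 18 moved further. Signal near background limits all calls of undetected.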
